A study of Mus musculus with 4 samples.

Results

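The genes described here are 45 matrix remodelling genes other than collagens, listed by their function. The list was chosen with earlier results of these data known. It holds matrix metalloproteinases (MMPs) and their inhibitors (TIMPs), ADAMTS proteases, lysyl oxidases, collagen hydroxylases, procollagen chaperone and processing proteins, glycoproteins and small leucine-rich proteoglycans. Of the 45, 40 had a probe set (the group of short probes that reads 1 transcript) carrying exactly 1 gene symbol, among 22180 genes with such a probe set, and 36 (80%) were measured, among 11148 measured genes. A gene is called measured here when its mean over the arrays is at or above the average of the negative control probes, the background. Where a gene had several such probe sets, the brightest was used.

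Epididymal white fat of 4 male mice aged 16 weeks was profiled with GeneChip Mouse Gene 2.0 ST arrays, 1 mouse and 1 array for each combination of genotype and chow. The groups were HFHS AdipoKO, STD AdipoKO, HFHS flox/y and STD flox/y. All mice carried the floxed Mir221 and Mir222 allele, which is X-linked and single in males. AdipoKO mice in addition carried an Adipoq-Cre transgene, which acts in adipocytes through the adiponectin promoter and leaves the gene intact in the other cells of the fat pad, and flox/y littermates carried no Cre. HFHS is the high fat-high sucrose chow D12331 and STD the standard chow MF, each given from 5 weeks of age. The strain is C57BL/6J in the labels. With 1 mouse per group no difference between 2 arrays can be tested, and every value below describes these 4 mice.

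The deleted microRNAs share their seed, the bases that pair with target transcripts. Their mature sequences are shown because they define the genotype, with the seed (bases 2 to 8) in capitals, from RefSeq on GRCm38.p6, minus strand, at chrX:19146307-19146329 and chrX:19146901-19146923:
mmu-miR-221-3p: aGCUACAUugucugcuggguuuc
mmu-miR-222-3p: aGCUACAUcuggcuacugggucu
The probe sets for Mir221 and Mir222 lay below background on all 4 arrays, so the arrays give no check of the genotype.

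Adipocytes sit in a basement membrane and a fibrillar collagen network that is cut, rebuilt and crosslinked as the cells enlarge. MMPs and ADAMTS enzymes cleave collagens, glycoproteins and proteoglycans, and TIMPs block them. Collagen chains are hydroxylated in the endoplasmic reticulum by prolyl and lysyl hydroxylases, folded with the help of the chaperone HSP47, trimmed outside the cell and joined by lysyl oxidases. In fat, much of this matrix is made by stromal cells, with contributions from adipocytes and macrophages. In bulk tissue, fewer cells of a type and less RNA per cell cannot be told apart.

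Facts of the arrays that touch these genes are as follows. The deposited values had medians between 5.39 and 5.42 on the log2 scale. Adipocyte markers were above background on all arrays in 9 of 9 genes found, and epididymis markers were below background on all arrays in 6 of 6 genes found. The HFHS flox/y array carried hepatocyte transcripts: the summed linear expression of 10 hepatocyte markers was 7156 in HFHS AdipoKO, 8626 in STD AdipoKO, 15726 in HFHS flox/y and 8623 in STD flox/y. Such a sum weighs the brightest genes most. By gene, the median over the 8 measured markers was 3.62 on the log2 scale for HFHS over STD in flox/y fat. For AdipoKO over flox/y fat on STD it was 0.50, with 7 of 8 above 0. The STD flox/y array was high in immediate early genes, which are induced within minutes by stress or growth signals: their summed expression over 21 genes was 8126 in HFHS AdipoKO, 6157 in STD AdipoKO, 5781 in HFHS flox/y and 12944 in STD flox/y. Each comparison below that uses either array carries this difference as well, and its part in the members' values was not tested.

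In flox/y fat, 7 of the 36 measured members were 1.5-fold or more above STD with HFHS, against a background of 5.16% of all measured genes. They were Adamts5, Pcolce2, Fn1, Lum, Bmp1, Postn and Mmp2. Another 4 had values lower by 1.5-fold or more (Adamts1, Adamts9, Adamts4 and Mmp9), against a background of 7.07%. For Mmp9 the HFHS array was below background and the difference is bounded only at 1.46-fold, and with both arrays required above background the count was 3. The members thus lay on both sides of 0, with differences between -1.74 (Adamts1) and 1.40 (Adamts5) on the log2 scale. Their median difference was 0.21 on the log2 scale and 23 of 36 lay above 0 (63.9%). Over all measured genes the median was -0.0015, with 49.6% above 0. A member counts as higher or lower only where at least 1 of the 2 arrays was at or above its own background.

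In AdipoKO fat, 6 of the 36 measured members were 1.5-fold or more above STD with HFHS, against a background of 3.52%. They were Mmp19, Tnc, Adamts15, Thbs2, Pcolce2 and Plod2, of which only Pcolce2 was also past 1.5-fold higher in flox/y fat. Of all 11148 measured genes, 392 were past 1.5-fold higher in AdipoKO fat, and 136 of these were so in flox/y fat too. Mmp9 was the 1 member lower, against a background of 3.67%, with its HFHS array below background and a bound of at least 2.15-fold. The median difference was 0.15 on the log2 scale and 25 of 36 members lay above 0 (69.4%). Over all measured genes the median was -0.013, with 48% above 0. These 2 chow comparisons share no array. Their differences had the same sign in 61.1% of the 36 members and in 62.6% of all measured genes, so the share in the members was near that of the background.

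On STD, Mmp9 was the 1 member at least 1.5-fold higher in AdipoKO relative to flox/y fat (2.78% of the 36), against a background of 1.22%. Mmp19, Plod2, Adamts1 and P4ha1 were at least 1.5-fold lower in AdipoKO (11.1% of the 36), against a background of 2.57%. The median difference over the 36 was -0.064 on the log2 scale, with 16 above 0 (44.4%). Over all measured genes the median was 0.0025, with 50.6% above 0. With quantile normalization 2 members were lower, Adamts1 (-0.54) and P4ha1 (-0.53) falling short of 1.5-fold, and the median was 0.0061.

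On HFHS, 5 members were at least 1.5-fold higher in AdipoKO relative to flox/y fat (Thbs2, Adamts1, Adamts15, Adamts9 and Tnc), against a background of 2.17%. Another 5 were at least 1.5-fold lower in AdipoKO (Adamts5, Fn1, Lum, Pcolce2 and Mmp2), against a background of 2.4%. All 5 of these lower members were among the 7 that stood above STD with HFHS in flox/y fat, but both comparisons use the HFHS flox/y array, and a high value on that array enters both. The median over the 36 was -0.14 on the log2 scale, with 13 above 0 (36.1%). Over all measured genes the median was -0.0026, with 49.3% above 0.

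**Figure D1:**
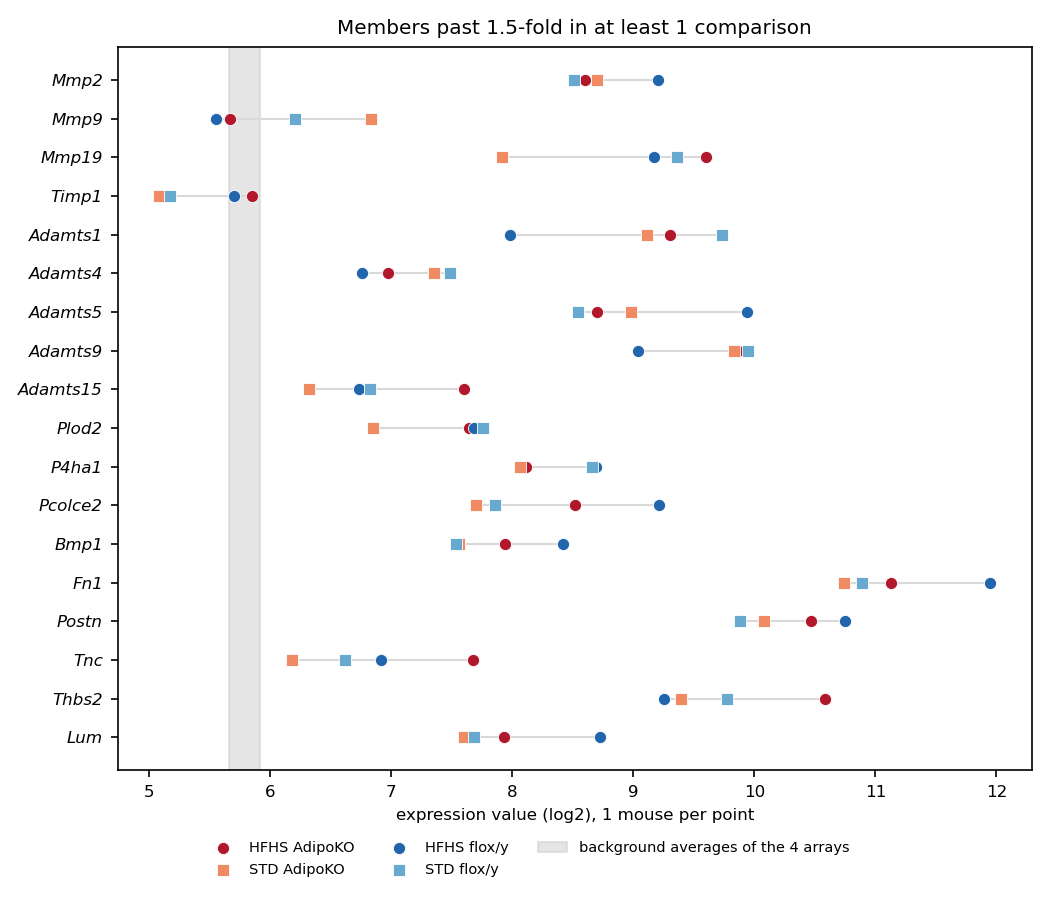
Expression value on the log2 scale (x axis) of the 18 members past 1.5-fold in at least 1 comparison (y axis), 1 point for each of the 4 mice. Circles are HFHS and squares STD arrays, red shades AdipoKO and blue shades flox/y, and the grey band spans the background averages of the arrays. The HFHS flox/y circle stands highest for Mmp2, Adamts5, P4ha1, Pcolce2, Bmp1, Fn1, Postn and Lum. It stands lowest for Mmp9, Adamts1, Adamts4, Adamts9 and Thbs2. The HFHS AdipoKO circle stands highest for Mmp19, Timp1, Adamts15, Tnc and Thbs2.

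The ADAMTS proteases (secreted enzymes with thrombospondin motifs, several of which cleave the proteoglycans aggrecan and versican) held the widest difference of any member in a single comparison (Adamts1), and they lay in opposite directions. Adamts1, an aggrecan- and versican-cleaving enzyme, had log2 values of 9.30 in HFHS AdipoKO, 9.11 in STD AdipoKO, 7.98 in HFHS flox/y and 9.73 in STD flox/y. The HFHS flox/y array was the low one. Adamts1 was 3.35-fold lower with HFHS in flox/y fat, while on HFHS it was 2.49-fold higher in AdipoKO relative to flox/y fat and on STD 1.53-fold lower. It was the only measured member past 1.5-fold in opposite directions in the genotype comparisons on HFHS and on STD, which share no array. With quantile normalization its difference on STD was -0.54 on the log2 scale, short of 1.5-fold, and the call in opposite directions was lost. In the same pair of comparisons, 104 of all 11148 measured genes were past 1.5-fold in opposite directions.

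Adamts5, the main aggrecanase of mouse cartilage, lies beside Adamts1 on chromosome 16, 55043 bases away on GRCm38 with no protein-coding gene between them. Its log2 values were 8.70 in HFHS AdipoKO, 8.98 in STD AdipoKO, 9.94 in HFHS flox/y and 8.54 in STD flox/y. The HFHS flox/y array was thus the high one here, the mirror of Adamts1. Adamts5 was 2.64-fold higher with HFHS in flox/y fat, and on HFHS it was 2.36-fold lower in AdipoKO relative to flox/y fat, both of which rest on that array.

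Adamts9, which cleaves versican and aggrecan, took the direction of Adamts1, with 9.86 in HFHS AdipoKO, 9.83 in STD AdipoKO, 9.04 in HFHS flox/y and 9.95 in STD flox/y on the log2 scale. It was 1.88-fold lower with HFHS in flox/y fat and 1.77-fold higher in AdipoKO relative to flox/y fat on HFHS. Adamts4, a further aggrecanase, had 6.97 in HFHS AdipoKO, 7.35 in STD AdipoKO, 6.76 in HFHS flox/y and 7.48 in STD flox/y, so that both HFHS arrays lay below both STD arrays. Its difference was past 1.5-fold only in flox/y fat (1.65-fold lower on HFHS).

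Adamts15, which also cleaves aggrecan and versican, stood apart from the others in that the AdipoKO arrays were its extremes. It had log2 values of 7.60 in HFHS AdipoKO, 6.32 in STD AdipoKO, 6.73 in HFHS flox/y and 6.82 in STD flox/y. It was 2.43-fold higher with HFHS in AdipoKO fat and 1.82-fold higher in AdipoKO relative to flox/y fat on HFHS. Adamts10, a partner of fibrillin microfibrils, and Adamts12 differed by less than 1.5-fold in every comparison.

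**Figure D2:**
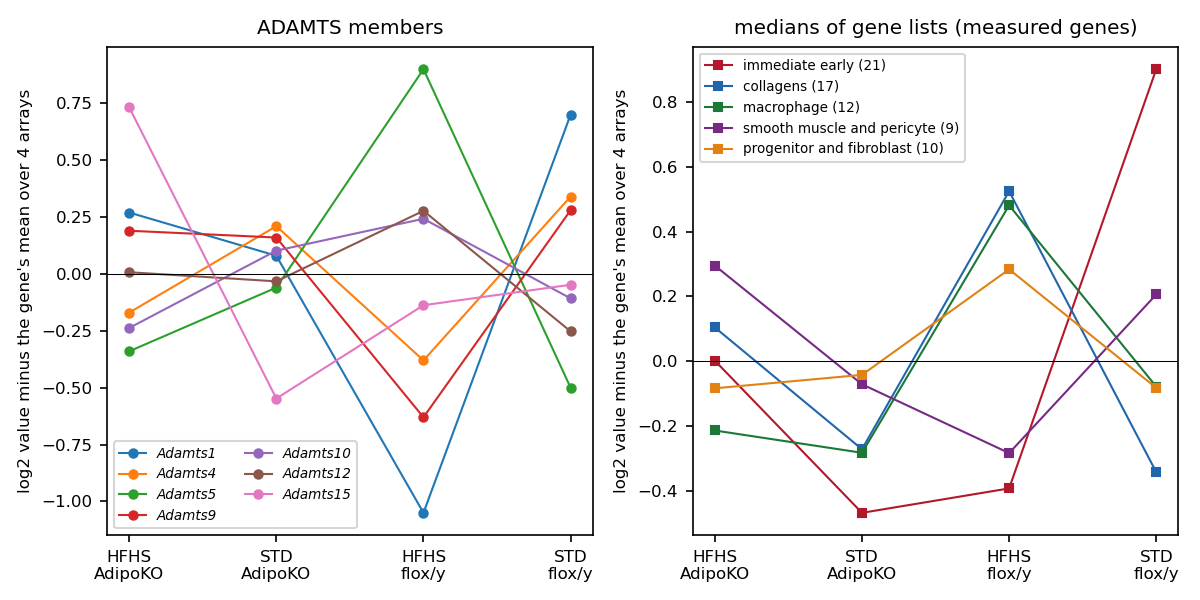
Left, log2 value of each measured ADAMTS member minus its mean over the 4 arrays, by array. Right, median of the same quantity over the measured genes of 5 gene lists, number of genes in brackets. The lines join values of 1 gene or list and mark no order. Adamts1 and Adamts9 are lowest and Adamts5 highest on the HFHS flox/y array, on which the collagen and macrophage medians are also highest, while the immediate early median is highest on the STD flox/y array.

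Marker lists also differed between these arrays. For AdipoKO over flox/y fat on STD, Adamts1 differed by -0.61 on the log2 scale, Adamts9 by -0.12 and Adamts5 by 0.43. Immediate early genes were at least 1.5-fold lower with HFHS in flox/y fat in 18 of 21 measured genes (median -1.27 on the log2 scale) and lower in AdipoKO relative to flox/y fat on STD in 15 of 21 (median -1.37). On HFHS the sign turned, with 8 of the 21 higher in AdipoKO relative to flox/y fat and 0 lower, at a median of 0.42. Smooth muscle and pericyte markers had 3 of 9 lower and 1 higher with HFHS in flox/y fat, and 4 of 9 higher in AdipoKO relative to flox/y fat on HFHS, where Cnn1, a smooth muscle actin-binding protein, differed by 2.17 on the log2 scale. The summed expression of the 9 was 5746 in HFHS AdipoKO, 4538 in STD AdipoKO, 4492 in HFHS flox/y and 4940 in STD flox/y. The part of these lists in the ADAMTS values was not tested.

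The promoter of Adamts1 is shown for the member with the widest chow difference in flox/y fat, that of Thbs2 for the member with the largest genotype difference on HFHS, and that of P4ha1 for the member whose AdipoKO arrays both lay below both flox/y arrays by about the same amount on either chow. Each runs from 250 bases before to 50 bases after a RefSeq start site on GRCm38.p6. Capitals mark the letters searched on both strands. A hypoxia response element (HRE) was read as ACGTG, or in its other form with a leading guanine as GCGTG. A SMAD CAGA box was read as CAGAC, and a TATA box as the letters TATAAA. AP-1 was read as TGANTCA, which is in no promoter shown. No 2 capital runs overlap.
Adamts1 (chr16:85803064-85803363, minus strand): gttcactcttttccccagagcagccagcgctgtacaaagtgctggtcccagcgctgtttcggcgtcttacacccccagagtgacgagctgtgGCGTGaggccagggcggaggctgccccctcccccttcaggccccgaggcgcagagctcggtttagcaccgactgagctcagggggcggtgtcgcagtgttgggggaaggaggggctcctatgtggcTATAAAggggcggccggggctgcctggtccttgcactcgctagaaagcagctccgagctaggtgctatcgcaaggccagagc
Thbs2 (chr17:14694213-14694512, minus strand): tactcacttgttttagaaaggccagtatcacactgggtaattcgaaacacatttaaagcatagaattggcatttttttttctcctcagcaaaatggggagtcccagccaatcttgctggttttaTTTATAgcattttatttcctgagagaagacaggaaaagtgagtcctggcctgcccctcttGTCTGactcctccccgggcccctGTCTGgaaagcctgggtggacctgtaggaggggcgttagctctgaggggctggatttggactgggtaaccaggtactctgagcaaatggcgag
P4ha1 (chr10:59323046-59323345, plus strand): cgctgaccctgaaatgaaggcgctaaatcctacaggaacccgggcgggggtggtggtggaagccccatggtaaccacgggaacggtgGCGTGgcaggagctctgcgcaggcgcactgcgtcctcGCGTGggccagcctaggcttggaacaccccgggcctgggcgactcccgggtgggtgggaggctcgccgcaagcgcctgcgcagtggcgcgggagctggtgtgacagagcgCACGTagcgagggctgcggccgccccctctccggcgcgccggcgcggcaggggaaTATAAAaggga
The TATA box of Adamts1 begins 32 bases before its start site, whereas that of Thbs2 is on the reverse strand 126 bases before, and that of P4ha1 lies after the start site. P4ha1 holds HRE letters at 3 positions.

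Promoters were at hand for 29 of the 45 members (32 start sites). HRE letters occurred in 15 of these 32 promoters, or 46.9%, against 43.8% of all 32851 promoters of this length. SMAD CAGA letters occurred in 13 (40.6%, against 49.6% of all). TATA boxes occurred in 9 (28.1%, against 13.6% of all), those of Adamts1, Mmp3, Mmp13, P4ha1, Plod1, Postn, Thbs2 and Tnc. AP-1 letters occurred in 2 (6.25%, against 7.81% of all), those of Mmp3 and Mmp13, which were both below background on all 4 arrays. The CArG box of serum response factor occurred in 0 of the 32 and in 1.63% of all promoters. A match is a run of letters and not a binding site.

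Among the secreted MMPs, Mmp19, which cleaves basement membrane components, had the largest chow difference of any member in AdipoKO fat. Its log2 values were 9.60 in HFHS AdipoKO, 7.91 in STD AdipoKO, 9.17 in HFHS flox/y and 9.36 in STD flox/y. The STD AdipoKO array was the low one, below the other 3 by more than these differed among themselves. Mmp19 was therefore 3.23-fold higher with HFHS in AdipoKO fat and 2.74-fold lower in AdipoKO relative to flox/y fat on STD, both of which rest on that array.

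The gelatinases, which degrade denatured collagen and collagen IV, went apart. Mmp2, gelatinase A, had log2 values of 8.60 in HFHS AdipoKO, 8.70 in STD AdipoKO, 9.20 in HFHS flox/y and 8.51 in STD flox/y. It was 1.62-fold higher with HFHS in flox/y fat and 1.52-fold lower in AdipoKO relative to flox/y fat on HFHS. Mmp9, gelatinase B, made largely by myeloid cells, had 5.67 in HFHS AdipoKO, 6.83 in STD AdipoKO, 5.55 in HFHS flox/y and 6.20 in STD flox/y. Both HFHS arrays were below background for Mmp9, so that its chow difference is only a bound, set by the background of the dim array: it was at least 2.15-fold lower with HFHS in AdipoKO fat and at least 1.46-fold lower in flox/y fat. Both HFHS arrays lay below both STD arrays.

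Mmp11 (stromelysin-3), the membrane-bound Mmp14, which activates pro-MMP2, and Mmp23 differed by less than 1.5-fold in every comparison. Mmp14 had its lowest log2 value, 8.71, in HFHS AdipoKO, against 9.19 in HFHS flox/y. Mmp3 and Mmp13, a stromelysin and a collagenase, were below background on all 4 arrays, and no ratio is given for them.

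Of the TIMPs, Timp2 and Timp4 were measured, and neither differed by 1.5-fold. Timp2, which also takes part in the activation of pro-MMP2, had its highest log2 value, 10.74, in HFHS flox/y, against 10.44 in STD flox/y. Timp1 was near background throughout, with log2 values of 5.85 in HFHS AdipoKO, 5.08 in STD AdipoKO, 5.70 in HFHS flox/y and 5.17 in STD flox/y. Only the HFHS arrays were above their own background. Timp1 was at least 1.04-fold higher with HFHS in AdipoKO fat, a bound too small to separate it from the background, and it is not among the measured members.

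Among the fibre-forming proteins and glycoproteins, Fn1 and Postn had their highest value in HFHS flox/y fat and Tnc and Thbs2 theirs in HFHS AdipoKO fat. Thbs2, thrombospondin-2, a matricellular protein that binds MMP2 and restrains vessel growth, had log2 values of 10.58 in HFHS AdipoKO, 9.39 in STD AdipoKO, 9.25 in HFHS flox/y and 9.77 in STD flox/y. It was 2.28-fold higher with HFHS in AdipoKO fat and 2.51-fold higher in AdipoKO relative to flox/y fat on HFHS. In flox/y fat the chow difference was -0.52 on the log2 scale, short of 1.5-fold.

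Tnc, tenascin-C, a glycoprotein of healing and inflamed tissue, had 7.67 in HFHS AdipoKO, 6.18 in STD AdipoKO, 6.91 in HFHS flox/y and 6.62 in STD flox/y on the log2 scale. Both HFHS arrays lay above both STD arrays. It was 2.80-fold higher with HFHS in AdipoKO fat and 1.68-fold higher in AdipoKO relative to flox/y fat on HFHS, and 0.29 higher on the log2 scale with HFHS in flox/y fat.

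Fn1, fibronectin, which cells use to assemble collagen fibrils and which hepatocytes secrete into plasma, had 11.13 in HFHS AdipoKO, 10.74 in STD AdipoKO, 11.95 in HFHS flox/y and 10.89 in STD flox/y on the log2 scale. It was 2.08-fold higher with HFHS in flox/y fat and 1.76-fold lower in AdipoKO relative to flox/y fat on HFHS. Both use the HFHS flox/y array, on which 7 of 8 measured hepatocyte markers were higher than in STD flox/y (median 3.62 on the log2 scale) and, in turn, 7 of 8 were lower in HFHS AdipoKO than there (median -3.90). Between the AdipoKO arrays, where 0 of 8 hepatocyte markers were higher on HFHS and 3 were lower, the Fn1 difference was 0.39 on the log2 scale. Collagens and macrophage markers were also higher in HFHS flox/y than in STD flox/y, with medians of 0.91 and 0.65 on the log2 scale. The part of any of these lists in the Fn1 values was not tested.

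Postn, periostin, a matricellular protein of collagen-rich tissue, had 10.47 in HFHS AdipoKO, 10.08 in STD AdipoKO, 10.75 in HFHS flox/y and 9.88 in STD flox/y on the log2 scale, and was 1.82-fold higher with HFHS in flox/y fat. Sparc, osteonectin, which binds collagen, had chow differences of 0.39 in AdipoKO and 0.33 in flox/y fat on the log2 scale. Eln, elastin, had -0.29 in AdipoKO and -0.31 in flox/y fat, so its HFHS values were the lower ones in both genotypes, short of 1.5-fold.

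Of the small leucine-rich proteoglycans, which bind collagen fibrils and set their diameter, Lum (lumican) was past 1.5-fold. It had 7.93 in HFHS AdipoKO, 7.60 in STD AdipoKO, 8.72 in HFHS flox/y and 7.68 in STD flox/y on the log2 scale. The HFHS flox/y array was the high one, 2.05-fold above STD flox/y, and on HFHS the AdipoKO array was 1.73-fold lower than it. Bgn (biglycan) had chow differences of 0.47 in AdipoKO and 0.53 in flox/y fat, and Fmod (fibromodulin) -0.30 in AdipoKO and -0.40 in flox/y fat on the log2 scale. Bgn, Lum and Fmod were thus alike in sign between the genotypes.

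**Figure D3:**
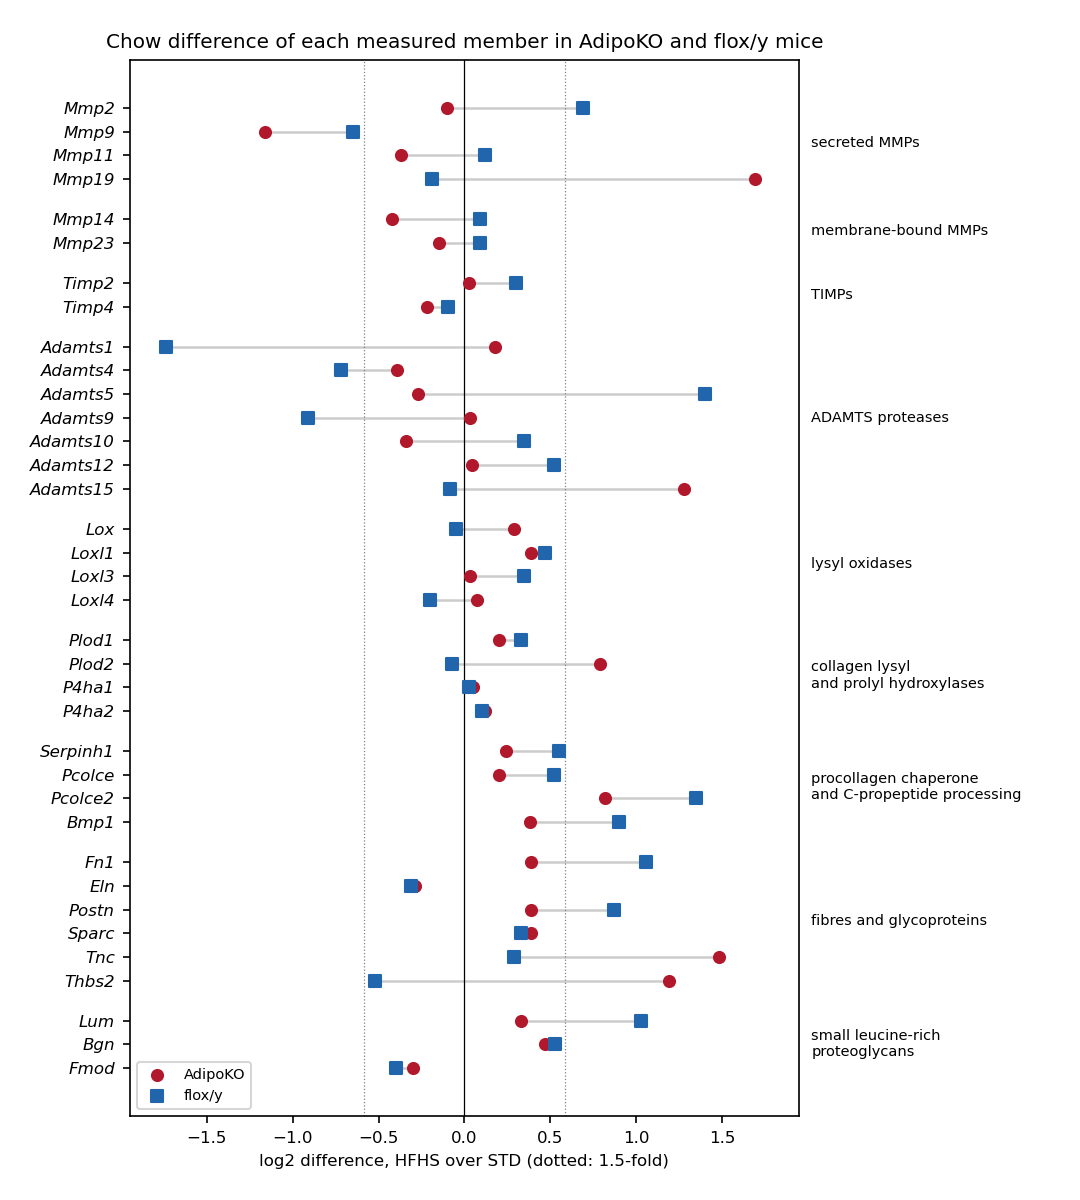
Difference on the log2 scale between HFHS and STD (x axis) of each of the 36 measured members (y axis, grouped by role), in AdipoKO mice (red circles) and flox/y mice (blue squares), 1 mouse per chow and genotype. Dotted lines mark 1.5-fold. All 4 chaperone and C-propeptide processing genes lie above 0 in both genotypes, while Adamts1, Adamts5, Mmp19, Thbs2, Adamts15 and Tnc have the widest gaps between the genotypes.

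The procollagen chaperone and the enzyme and enhancers that remove the C-propeptide lay to 1 side of 0 together in 3 of the 4 comparisons. All 4 lay above 0 on HFHS over STD in AdipoKO fat (median 0.31 on the log2 scale) and in flox/y fat (median 0.73), and all 4 lay below 0 in AdipoKO over flox/y fat on HFHS (median -0.50). On STD, 2 lay above and 2 below 0 in AdipoKO over flox/y fat (median -0.064). Of the 3 comparisons, the chow comparison in flox/y fat and the genotype comparison on HFHS share the HFHS flox/y array. In the 3 comparisons, in the order given, other collagen-processing genes lay above 0 in 7, 11 and 1 of 12. Collagens did so in 17, 17 and 1 of 17. Of all measured genes, 48%, 49.6% and 49.3% did so, in the same order. Other small roles also lay to 1 side of 0. The 4 measured collagen hydroxylases lay above 0 with HFHS in AdipoKO fat and below 0 in AdipoKO over flox/y fat on HFHS. The 4 measured lysyl oxidases lay above 0 with HFHS in AdipoKO fat. The 2 measured membrane-bound MMPs shared a sign in each of the 4 comparisons. Pcolce2, an enhancer of procollagen C-proteinase, had log2 values of 8.52 in HFHS AdipoKO, 7.70 in STD AdipoKO, 9.21 in HFHS flox/y and 7.86 in STD flox/y. Both HFHS arrays lay above both STD arrays, by 1.77-fold in AdipoKO and 2.56-fold in flox/y fat, and on HFHS the AdipoKO array was 1.61-fold lower than flox/y. Bmp1, the procollagen C-proteinase itself, had 7.94 in HFHS AdipoKO, 7.56 in STD AdipoKO, 8.42 in HFHS flox/y and 7.53 in STD flox/y, 1.86-fold higher with HFHS in flox/y fat. Serpinh1 (HSP47, the collagen chaperone) and Pcolce had chow differences of 0.24 and 0.20 in AdipoKO fat and of 0.55 and 0.52 in flox/y fat on the log2 scale.

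Collagens, the substrates of these proteins, were described as a list for reference. On HFHS, 2 of 17 were at least 1.5-fold higher in AdipoKO fat and 11 of 17 in flox/y fat, with medians of 0.35 and 0.91 on the log2 scale. In AdipoKO over flox/y fat on HFHS, 4 of 17 were lower and 0 higher (median -0.39). Progenitor and fibroblast markers, of the cells that make much of this matrix, had medians of -0.019 in AdipoKO and 0.29 in flox/y fat on HFHS over STD, with 1 of 10 past 1.5-fold in each (Pi16, higher in both). In AdipoKO over flox/y fat on HFHS, 3 of these 10 were lower (Dpp4, Cd55 and Cd248) and 0 higher, with a median of -0.32 on the log2 scale. Their summed expression was 6461 in HFHS AdipoKO, 7180 in STD AdipoKO, 7358 in HFHS flox/y and 7574 in STD flox/y. In flox/y fat the sum was thus lower on HFHS, although 8 of the 10 markers lay above 0. Much of the sum is Dcn, with log2 values of 11.94 in HFHS flox/y and 12.23 in STD flox/y. Macrophage markers had 2 of 12 higher and 0 lower with HFHS in AdipoKO fat, 6 higher and 1 lower in flox/y fat, and 2 higher and 7 lower in AdipoKO over flox/y fat on HFHS. Their summed expression was 4632 in HFHS AdipoKO, 3950 in STD AdipoKO, 6209 in HFHS flox/y and 4524 in STD flox/y. The part of either marker list in the members' values was not tested.

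Of the 5 lysyl oxidases, which crosslink collagen and elastin, the 4 with values (all but Loxl2) differed by less than 1.5-fold in all 4 comparisons. Their differences lay between -0.23 and 0.47 on the log2 scale. Loxl1, needed for elastic fibres, had chow differences of 0.39 in AdipoKO and 0.47 in flox/y fat. Lox had 0.29 in AdipoKO and -0.047 in flox/y fat, and it was 0.38 higher in AdipoKO relative to flox/y fat on HFHS. Loxl3 had 0.030 in AdipoKO and 0.35 in flox/y fat, and Loxl4, near background, 0.076 in AdipoKO and -0.20 in flox/y fat.

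The collagen hydroxylases held the 1 member with an unadjusted limma p below 0.05 for genotype. P4ha1, a catalytic subunit of collagen prolyl 4-hydroxylase, had log2 values of 8.11 in HFHS AdipoKO, 8.06 in STD AdipoKO, 8.69 in HFHS flox/y and 8.66 in STD flox/y. Both AdipoKO arrays lay below both flox/y arrays, and chow made a difference of 0.052 in AdipoKO and 0.028 in flox/y fat on the log2 scale. P4ha1 was 1.51-fold lower in AdipoKO relative to flox/y fat on STD and just short of 1.5-fold lower on HFHS (-0.57 on the log2 scale). P4ha2, the other catalytic subunit measured, had the same sign, -0.25 on HFHS and -0.27 on STD for AdipoKO over flox/y fat, and P4ha3 was below background on all arrays.

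Plod2, the lysyl hydroxylase that acts on collagen telopeptides, had 7.64 in HFHS AdipoKO, 6.85 in STD AdipoKO, 7.68 in HFHS flox/y and 7.76 in STD flox/y on the log2 scale. The STD AdipoKO array was the low one, as for Mmp19. Plod2 was 1.72-fold higher with HFHS in AdipoKO fat and 1.87-fold lower in AdipoKO relative to flox/y fat on STD. Plod1 differed by less than 1.5-fold in every comparison. A list of 13 hypoxia-induced genes was set beside these because P4ha1 and Plod2 are known to respond to hypoxia. For AdipoKO over flox/y fat, its 11 measured genes had a median of -0.10 on STD, with 0 higher and 1 lower. On HFHS the median was 0.22, with 1 higher and 0 lower. For HFHS over STD the median was -0.038 in AdipoKO fat, with 1 higher and 1 lower. In flox/y fat it was -0.42, with 0 higher and 3 lower, where Plod2 differed by -0.074. The part of this list in the P4ha1 and Plod2 values was not tested.

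The chow differences of single members differed between genotypes by at least 2-fold in 6 of 36. The chow ratio was higher in AdipoKO relative to flox/y fat for Adamts1, Mmp19, Thbs2, Adamts15 and Tnc, against a background of 2.16%, by 1.93, 1.88, 1.71, 1.36 and 1.19 on the log2 scale. It was lower for Adamts5, by -1.67 on the log2 scale, against a background of 1.37%. This quantity uses all 4 arrays once each, and with 1 mouse per group it was not tested.

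**Figure D4:**
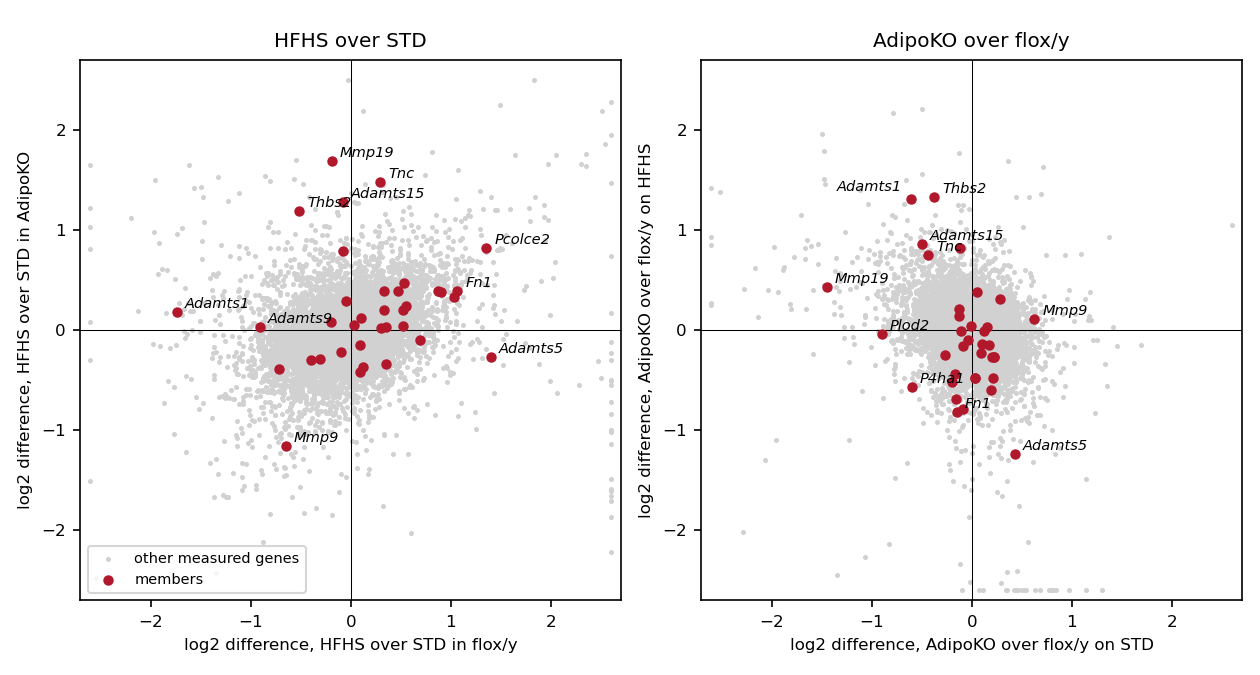
Left, difference on the log2 scale between HFHS and STD in AdipoKO (y axis) against the same in flox/y (x axis). Right, difference between AdipoKO and flox/y on HFHS (y axis) against the same on STD (x axis). Red points are the 36 measured members and grey points all measured genes, those beyond the axes being drawn at the edge. Pcolce2 is more than 1.5-fold higher on HFHS in both genotypes at left, Mmp9 is drawn from HFHS values below background, and Adamts1 is past 1.5-fold in opposite directions at right with the deposited values.

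The fit of chow with genotype as a covariate took the 2 HFHS mice against the 2 STD mice and used the spread that genotype and chow left over, which is the interaction, as its error (limma, 1 residual degree of freedom). At an unadjusted p below 0.05, 8 members were higher on HFHS, against a background of 5.79%, and 2 were lower, against a background of 7.16%. Pcolce2 was higher by 1.09 ± 0.18 on the log2 scale (SE, limma, adjusted p = 0.33). Bgn was higher by 0.50 ± 0.086 (limma, adjusted p = 0.33) and Sparc by 0.36 ± 0.086 (limma, adjusted p = 0.35). The other higher members at this level were Postn, Fn1, Loxl1, Bmp1 and Lum, with differences of 0.63, 0.72, 0.43, 0.64 and 0.68. Each was higher in 2 of 2 pairs of mice matched for genotype. The error of the fit is the disagreement between these 2 pairs, so the shared sign adds no support. The lower members were Adamts4 (-0.56 ± 0.15, limma, adjusted p = 0.36) and Mmp9, for which no difference is given because both HFHS arrays were below background. After Benjamini-Hochberg adjustment over the 11148 measured genes, 0 members and 0% of all genes passed 0.05.

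For genotype with chow as a covariate, P4ha1 was the 1 member lower in AdipoKO at an unadjusted p below 0.05, against a background of 0.906%, and 0 members were higher, against a background of 0.682%. Its difference was -0.59 ± 0.12 on the log2 scale (SE, limma, adjusted p = 1), lower in 2 of 2 pairs of mice matched for chow. The disagreement between these 2 pairs is the error of the fit, so their shared sign adds no support. After adjustment 0 members and 0% of all genes passed 0.05. Adamts1, with the widest single difference, had 0.35 ± 0.51 for genotype and -0.78 ± 0.51 for chow (SE, log2 scale).

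Other genes of the same pathways, outside the 45, give the setting of these values. Of 15 measured genes of the plasmin system and other matrix proteases, 2 were 1.5-fold or more higher and 1 lower with HFHS in AdipoKO fat, and 7 higher and 2 lower in flox/y fat. Adam12, a membrane-anchored metalloproteinase, was higher in both, by 1.21 in AdipoKO and 1.32 in flox/y fat on the log2 scale. Plau, urokinase, was 1.23 lower on the log2 scale with HFHS in AdipoKO fat, with log2 values of 7.24 in HFHS AdipoKO, 8.47 in STD AdipoKO, 7.94 in HFHS flox/y and 8.64 in STD flox/y. Of 5 other measured MMPs and TIMP genes, 0 differed by 1.5-fold with HFHS in AdipoKO fat and 1, Mmp12, was higher in flox/y fat. For AdipoKO over flox/y fat, 1 of the 5 was lower and 0 higher on each chow. This was again Mmp12, also in the macrophage list, 4.81-fold lower on HFHS and 2.09-fold lower on STD. Of 9 other measured ADAMTS family genes, 0 differed in AdipoKO fat and 3 were higher and 1 lower in flox/y fat.

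Of 41 other measured matrix glycoproteins, 4 were higher and 1 lower with HFHS in AdipoKO fat, and 7 higher and 1 lower in flox/y fat. Thbs1, the relative of Thbs2 that activates latent TGF-beta, had log2 values of 11.59 in HFHS AdipoKO, 10.60 in STD AdipoKO, 11.20 in HFHS flox/y and 11.93 in STD flox/y. Of 16 other measured proteoglycans, 5 were higher and 1 lower with HFHS in AdipoKO fat, and 5 higher and 3 lower in flox/y fat. Sdc4, a cell-surface heparan sulfate proteoglycan, had 10.76 in HFHS AdipoKO, 9.11 in STD AdipoKO, 8.97 in HFHS flox/y and 10.59 in STD flox/y, and was thus 1.64 higher with HFHS in AdipoKO fat and 1.61 lower in flox/y fat on the log2 scale. Vcan, the versican that ADAMTS enzymes cleave, was 1.05 higher on the log2 scale with HFHS in AdipoKO fat, with log2 values of 7.99 in HFHS AdipoKO, 6.95 in STD AdipoKO, 8.06 in HFHS flox/y and 7.46 in STD flox/y. Of 12 other measured collagen-processing genes, 0 differed by 1.5-fold with HFHS in AdipoKO fat and 1, Crtap, was higher in flox/y fat. Of 12 measured genes of TGF-beta signalling, a pathway that raises many matrix genes, 1 was higher and 1 lower with HFHS in AdipoKO fat, and 0 higher and 1 lower in flox/y fat.

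The 19 measured members past 1.5-fold in none of the comparisons had a spread over the 4 arrays between 0.15 (Mmp23) and 0.76 (Serpinh1) on the log2 scale. Loxl2 and Plod3 are read only by probe sets that carry several gene symbols and were not given values, and Adamts2, Fbn1 and Mmp15 were not analysed here because no probe set is paired with them in the annotation used.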

How the data were processed

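The arrays of 4 mice, 1 per group, were assigned to groups from the deposited titles, with which the descriptions and genotypes agree. The source field of the labels names another microRNA line and for some samples another chow, and was not used. The deposited values are on a log2 scale, as the authors normalized them, for 41345 probe sets on each array. The method of normalization was not stated in what was read here. The background of each array, its negative control average, was read from the study's supplementary expression tables. Arrays have no read depth, and their number limits the precision.

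Of the probe sets, 23521 carried 1 gene symbol in the platform annotation, 1820 carried several and 16004 were not listed and stayed unnamed. A gene was represented by the brightest of its probe sets, and 11148 of 22180 genes were measured. For 3 members several probe sets were at hand. Differences of log2 values were computed for 4 comparisons, and a member was called at 1.5-fold with at least 1 array above its background. Folds against an array below background are given as bounds. limma 3.58.1 in R 4.3.3 (empirical Bayes with a trend, Benjamini-Hochberg over all measured genes) fitted chow and genotype together. The error behind the p-values is the interaction of genotype and chow, with empirical Bayes over all measured genes. It is not a spread between mice of the same group, since each group held 1 mouse. Other steps used Python 3.11.15, pandas 2.3.3 and numpy 2.4.6. The steps were tested on simulated data.

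Any of the 45 members could be named. Those past 1.5-fold in some comparison are given on all arrays, and up to 4 genes of each other list with the largest differences were open to naming. The members, the gene lists and the threshold were chosen with earlier results of these data known, so that counts over them support nothing on their own. Coordinates and promoter and microRNA sequences are those of RefSeq on GRCm38.p6. Alternatives were another normalization, centring, filters, threshold and probe set rule, and other limma settings.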

Additional observations from a re-analysis of the deposited data

Results flagged for a closer look

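Adamts1 was lower in AdipoKO than in flox/y fat on STD (-0.61 on the log2 scale) and higher on HFHS (1.31), so that the genotype difference on HFHS exceeded that on STD by 1.93. With quantile normalization the difference on STD was -0.54, short of 1.5-fold. The groups pointed opposite ways with 1 mouse each, and the difference between them was not tested.

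Gene lists set beside the members were noted on the same ground, opposite medians in the 2 genotypes or on the 2 chows, and none of these differences was tested. The immediate early median was 0.42 for AdipoKO over flox/y fat on HFHS and -1.37 on STD, 1.79 apart on the log2 scale, and for HFHS over STD it was 0.39 in AdipoKO and -1.27 in flox/y fat, 1.65 apart. The hepatocyte median was -3.90 for AdipoKO over flox/y fat on HFHS and 0.50 on STD, a difference of -4.41, and for HFHS over STD it was -0.59 in AdipoKO and 3.62 in flox/y fat, a difference of -4.21. The smooth muscle and pericyte median for HFHS over STD was 0.33 in AdipoKO and -0.49 in flox/y fat, 0.82 apart.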

How the results depend on the processing

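Of 92 recomputed counts and medians of the members, 80 stayed within 1.5 times the count or within 0.1 of the median on the log2 scale, and 12 did not. With quantile normalization, AdipoKO over flox/y on STD had 2 members lower in place of 4 and a median of 0.0061 in place of -0.064. With filters at 2 times the negative control average, the flox/y chow median was 0.31 in place of 0.21, and 0 members were lower on HFHS in AdipoKO and 0 higher in AdipoKO on STD, since Mmp9 did not pass. At 2-fold in place of 1.5-fold, flox/y fat had 4 members higher and 1 lower on HFHS, AdipoKO over flox/y had 0 higher and 1 lower on STD and 2 higher and 1 lower on HFHS. With both arrays required above background, 0 members were lower on HFHS in AdipoKO.

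Of the called differences of single members, recomputed with quantile normalization, with arrays centred on their measured genes and with the mean of all probe sets, 0 changed sign and 4 fell short of 1.5-fold: Adamts1 (-0.54) and P4ha1 (-0.53) on STD with quantile normalization, and P4ha1 on STD (-0.58) and Mmp2 on HFHS (-0.58) with centring, all for AdipoKO over flox/y. At adjusted p below 0.05 limma called 0 of all measured genes in each setting for genotype and, for chow, 1 gene without the covariate and 0 otherwise.

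No paired analysis was possible because the labels give no replicate numbers that could serve as a block. The limma fits matched mice only by genotype or by chow, as covariates. With 1 mouse in each group no replicate could be left out. Values within 1 mouse per group carry no biological error, the low end is limited by the background, and differences near 1.5-fold, such as those of P4ha1 and Mmp2, move across the threshold with the scaling.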
